A study of Mus musculus with 3 samples.

Results

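Mitochondrial RNA fragments in mouse liver were taken as small RNA inserts of 18 nt or more that matched, exactly and on the same strand, 1 of the 37 mitochondrial genes of the GENCODE mouse annotation and no miRNA precursor. They made up 38154 of 9198794 reads and 6649 of 731782 distinct inserts, and each of the 37 genes (22 tRNAs, 2 rRNAs and 13 mRNAs) had at least 1 read. The study used C57BL/6 mice injected with an adeno-associated virus vector of the self-complementary kind, scAAV9, and sequenced RNAs of 18 to 30 nt from liver 4 weeks later. The mock group received the vector with no TuD. The TuD-miR-122 group received it with a tough decoy, a hairpin RNA that binds and blocks a miRNA, against miR-122, and the TuD-let-7 group with a decoy against let-7. All groups therefore carried the vector, and each had 1 library. For the age, sex and number of animals behind a library and for the promoter of the decoys, the sources used here give nothing.

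The mitochondrial genome is transcribed from both strands into long precursors in which tRNAs lie between most of the rRNAs and mRNAs. Enzymes cut at the 5′ and the 3′ end of each tRNA, which releases the RNAs on either side, and CCA, which the gene does not encode, is then added to the tRNA's 3′ end. Liver is rich in mitochondria, and pieces of these abundant RNAs are regularly found in small RNA libraries.

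The results turn on a small number of sequences, shown here 5′ to 3′ from the GENCODE transcripts or the deposited inserts, with positions on GRCm38 and bases counted from 1 at the 5′ end of the gene. The first pair begins at base 1 of mt-Rnr2, the 16S rRNA of the large mitochondrial ribosome subunit (chrM:1094-2675, plus strand), and is shown because more mitochondrial reads started at that base than at any other in each library. Capitals mark the bases of the longer form beyond the shorter form.
mt-Rnr2 bases 1 to 21, chrM:1094-1114: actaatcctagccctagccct
mt-Rnr2 bases 1 to 25, chrM:1094-1118: actaatcctagccctagccctACAC

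The next set belongs to mt-Ts2, a serine tRNA that lacks the D arm of other tRNAs (chrM:11613-11671, plus strand). It is shown because its 5′ forms made up most of the gene's reads with TuD-miR-122 and their ratios to mock differed by the last base. In the gene, capitals mark bases 1 to 22, and in the 5′ forms they mark the bases beyond base 19. The last line is an internal fragment whose final base, in capitals, is not the base of the gene.
mt-Ts2 gene, chrM:11613-11671: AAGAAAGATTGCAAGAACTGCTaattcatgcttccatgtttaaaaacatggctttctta
mt-Ts2 bases 1 to 19: aagaaagattgcaagaact
mt-Ts2 bases 1 to 22: aagaaagattgcaagaactGCT
mt-Ts2 bases 1 to 28: aagaaagattgcaagaactGCTAATTCA
mt-Ts2 bases 29 to 54: tgcttccatgtttaaaaacatggctt
mt-Ts2 bases 29 to 53 and A: tgcttccatgtttaaaaacatggctA

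The remaining sequences are the leading fragments of mt-Rnr1, the 12S rRNA of the small subunit, and of mt-Te, the glutamate tRNA, and 3 tRNA ends that carry CCA, in capitals. The ends with CCA are outside the rule for members, since the gene lacks those bases, and are shown because CCA was the usual end of fragments that reached the 3′ end of a tRNA.
mt-Rnr1 bases 402 to 424, chrM:471-493, plus strand: gacagctaagacccaaactggga
mt-Te bases 38 to 63, chrM:14077-14102, minus strand: cattggtcgcagttgaatgctgtgta
mt-Te bases 53 to 69 and CCA, chrM:14071-14087, minus strand: aatgctgtgtagaaataCCA
mt-Tv bases 51 to 69 and CCA, chrM:1075-1093, plus strand: tgaccaatgaacactctgaCCA
mt-Tf bases 51 to 68 and CCA, chrM:51-68, plus strand: aattgtatcccataaacaCCA

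The libraries held 3450317 reads in mock, 3681585 with TuD-miR-122 and 2066892 with TuD-let-7. Between 75.6% and 82.0% of the reads matched miRNA precursors over their first 18 nt. Another 15.4% to 22.7% were of 18 nt or more and matched neither these nor, over their whole length, any annotated transcript. The 5 miRNA genes listed as hepatocyte markers, miR-122 among them, summed to 288354 to 517020 RPM (the reads-per-million value, over all reads of a library), so the defining miRNAs of the labelled tissue were present. The libraries also differed in miRNAs of other tissues. The 6 skeletal muscle miRNA genes, all with reads, summed to 4284 RPM in mock, 396 with TuD-miR-122 and 53.7 with TuD-let-7. The 4 pancreas miRNA genes, all with reads, summed to 51.0, 688 and 40.2 RPM in the same order. Of 4 listed erythroid miRNA genes 3 were in the annotation, all with reads, and summed to 13923, 19464 and 7352 RPM. Immune miRNAs (4 of 5 with reads) summed to 4880, 4580 and 2098 RPM, and endothelial miRNAs (2 of 2) to 12942, 16021 and 7482. Because each group had 1 library, no test between groups was possible. All 95% intervals cover counting error alone, since reads without molecular identifiers are not independent molecules. Both ratios to mock share the mock library.

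Mitochondrial fragments were most abundant with TuD-miR-122 and least abundant with TuD-let-7. They numbered 10854 reads in mock, 24236 with TuD-miR-122 and 3064 with TuD-let-7. As a share of all reads they were 0.315% of mock (95% interval 0.309% to 0.321%), 0.658% with TuD-miR-122 (0.650% to 0.667%) and 0.148% with TuD-let-7 (0.143% to 0.154%). The 3 intervals do not overlap. TuD-miR-122 stood at 2.09 times mock (95% interval 2.05 to 2.14), TuD-let-7 at 0.471 times mock (0.453 to 0.491) and TuD-miR-122 at 4.44 times TuD-let-7 (4.28 to 4.61). In a sample of whole liver, fewer cells of a type and less RNA per cell cannot be told apart.

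Several other measures of the libraries had the same order, but snoRNA fragments did not. Reads under 18 nt made up 0.457% of mock, 1.29% with TuD-miR-122 and 0.338% with TuD-let-7. Fragments of nuclear protein-coding transcripts stood at 5684, 10410 and 3741 RPM, which is 1.83 times mock (1.80 to 1.86) with TuD-miR-122 and 0.658 times mock (0.641 to 0.676) with TuD-let-7. Fragments of lincRNAs, long noncoding RNAs, stood at 4898, 7939 and 3458 RPM, and those of snRNAs, small nuclear RNAs, at 110.4, 156.7 and 84.2. Nuclear fragments that matched several gene types stood at 4873, 5351 and 2834 RPM. Of these nuclear types only snoRNAs had another order, at 1640, 1472 and 1097 RPM, which is 0.897 times mock (0.8645 to 0.932) with TuD-miR-122. The part of these measures in the result, and that of the miRNAs of other tissues above, was not tested. At the lower edge of the rule, reads of 18 nt that matched a mitochondrial gene numbered 231 in mock, 493 with TuD-miR-122 and 38 with TuD-let-7. Matching reads of 17 nt, just outside it, numbered 94, 234 and 38.

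The choice of scale changes the sizes. Against RPM of all reads, dividing by reads outside miRNAs shifts every log2 ratio of TuD-miR-122 to mock by -0.44, and dividing by nuclear protein-coding fragments shifts it by -0.87. For TuD-let-7 against mock, these shifts are -0.44 and 0.60, and dividing by miRNA reads from neither the miR-122 nor the let-7 loci gives 0.74. On the scale of nuclear protein-coding fragments, mitochondrial fragments were 1.14 times mock (1.12 to 1.17) with TuD-miR-122 and 0.716 times mock (0.688 to 0.745) with TuD-let-7. Counted as distinct inserts, they were 4652 of 380902 with TuD-miR-122 and 2465 of 274320 in mock. As a share of all distinct inserts of a library, this is 1.36 times mock.

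**Figure D1:**
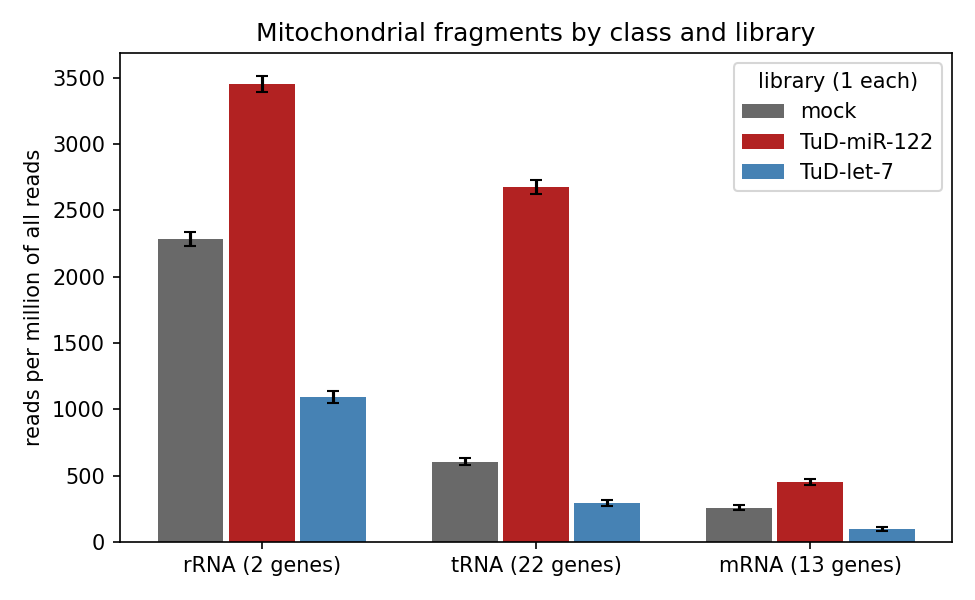
Mitochondrial fragments of the 2 rRNA, 22 tRNA and 13 mRNA genes in each library, as RPM of all reads; bars are single libraries and error bars are 95% Poisson intervals, which cover counting error only. The tRNA bar of TuD-miR-122, at 2680, stands well above those of mock, at 604, and TuD-let-7, at 292, while rRNA is the highest class in every library.

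The classes differed between the libraries. tRNA fragments stood at 604 RPM (579 to 631) in mock, 2680 (2627 to 2733) with TuD-miR-122 and 292 (269 to 316) with TuD-let-7. rRNA fragments stood at 2283 RPM (2233 to 2334) in mock, 3452 (3392 to 3512) with TuD-miR-122 and 1093 (1049 to 1139) with TuD-let-7. mRNA fragments stood at 259 RPM (242 to 276), 452 (430.3 to 474) and 97.3 (84.3 to 112) in that order. The plot of levels by class shows the same order of libraries in all 3 classes, with the widest gap in tRNAs.

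tRNA fragments formed 19.2% of mitochondrial reads in mock (18.5% to 19.96%) and 19.7% with TuD-let-7 (18.3% to 21.1%), but 40.7% with TuD-miR-122 (40.1% to 41.3%). The rRNA share was 72.6%, 73.8% and 52.4%, respectively. Counted as distinct inserts, the tRNA share was 29.1% in mock, 39.1% with TuD-let-7 and 35.2% with TuD-miR-122, so that TuD-miR-122 was then not the highest. Per length of gene, tRNAs gave 403 RPM per kb in mock, 1785 with TuD-miR-122 and 194 with TuD-let-7. mRNAs gave 22.7, 39.6 and 8.53 RPM per kb. A base of a tRNA gene was thus covered far more often than a base of an mRNA gene in every library, with the rRNAs between them with TuD-miR-122 and above the tRNAs in the other two.

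Against mock, tRNA fragments with TuD-miR-122 were 4.43 times as frequent (4.23 to 4.65), and between 2.42 and 4.46 times on the other scales. rRNA fragments were 1.51 times as frequent (1.47 to 1.56) but 0.826 times (0.803 to 0.849) on the scale of nuclear protein-coding fragments. mRNA fragments were 1.75 times as frequent (1.61 to 1.90) but 0.953 times on that scale, with an interval that includes 1 (0.878 to 1.035). The higher level of rRNA and mRNA fragments with TuD-miR-122 therefore depends on the scale, and that of tRNA fragments does not on those computed. In TuD-let-7 the ratio to mock was 0.483 (0.440 to 0.529) for tRNAs, 0.479 (0.457 to 0.502) for rRNAs and 0.376 (0.321 to 0.438) for mRNAs, and all 3 were under 1 on each scale.

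Genes were compared by a rule of size: at least 100 reads over both libraries and a 95% interval of the ratio wholly above 2 or below 0.5. In TuD-miR-122 against mock, 17 of the 32 mitochondrial genes with enough reads were higher by this rule and 0 were lower. All 17 were tRNAs, of 20 tRNAs with enough reads, against 0 of 2 rRNAs and 0 of 10 mRNAs. Over all 352 annotated genes tested, 15.6% were higher and 1.7% lower, and over the 102 nuclear genes without a miRNA precursor 10.8% were higher. The median ratio was 2.69 over the 32 mitochondrial genes, 1.504 over these 102 nuclear genes and 1.20 over all 352. Scaled to reads outside miRNAs, 9 of the 32 mitochondrial genes were higher by the rule, beside 1.96% of the nuclear genes. Scaled to nuclear protein-coding fragments, 4 of the 32 were higher and 0 lower, beside 0 of the 102 nuclear genes higher and 11.8% lower. Protein-coding genes among the 102 are part of that scale, so this background is not independent of it. The same holds for that scale in the comparisons below.

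In TuD-let-7 against mock, 2 of 14 mitochondrial genes were lower by the rule, mt-Ts2 and mt-Nd5, and 0 were higher. The background was 23.3% lower and 1.16% higher over 258 annotated genes, and 12.3% lower over 57 nuclear genes without a miRNA precursor, so this count is near the background. The count was 6 of 14 when scaled to reads outside miRNAs, beside 35.1% of the nuclear genes, and 0 of 14 when scaled to miRNA reads from neither decoy's target loci or to nuclear protein-coding fragments, beside 0 of the 57. It was 1 of 12 with inserts of at least 20 nt, beside 16.98% of the nuclear genes, and 5 of 37 with a minimum of 20 reads, beside 4.58%. In TuD-miR-122 against TuD-let-7, 26 of 28 were higher, the exceptions being mt-Co2 and mt-Co3, and 0 were lower. There the background was 43% higher and 0.637% lower over 314 annotated genes, and 38.3% higher over 81 nuclear genes without a miRNA precursor. The count was 18 of 28 when scaled to miRNA reads from neither decoy's target loci, beside 9.88% of these nuclear genes, and 6 of 28 when scaled to nuclear protein-coding fragments, beside 1.23%. On RPM of all reads, TuD-miR-122 was above mock in 36 of 37 genes, the exception being mt-Nd3, and TuD-let-7 was below mock in 36 of 37, the exception being mt-Ts1. On the scale of nuclear protein-coding fragments these counts were 27 and 31.

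**Figure D2:**
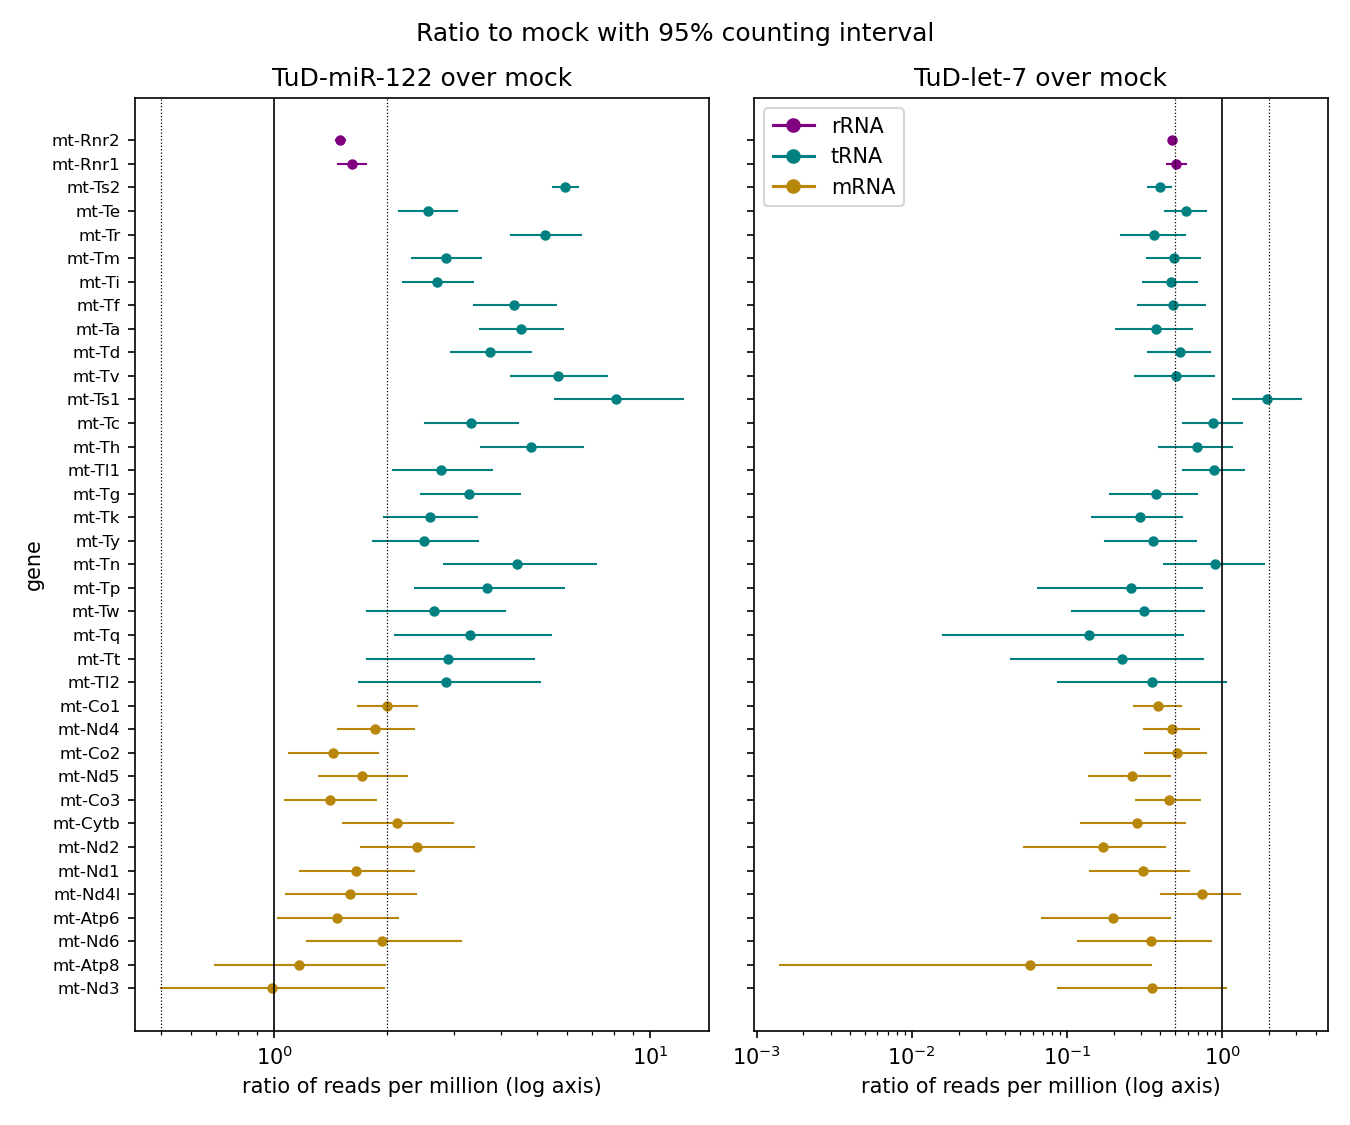
Ratio of RPM to mock for each of the 37 genes, TuD-miR-122 on the left and TuD-let-7 on the right, on log axes; points are ratios of single libraries, lines are 95% counting intervals and dotted lines mark 0.5 and 2. On the left the 22 tRNA genes lie between 2.51 and 8.13 and the 13 mRNA genes between 0.987 and 2.39, and on the right mt-Ts1 is the only gene above 1.

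Among the rRNAs, mt-Rnr2 was the most frequent mitochondrial gene. It had 7014 reads in mock, 11226 with TuD-miR-122 and 1999 with TuD-let-7, or 2033, 3049 and 967 RPM. Reads were concentrated at its first base, which directly follows mt-Tv, the valine tRNA, in the precursor. Base 1 was the start of 86.9% of its reads in mock (86.1% to 87.7%), 85.2% with TuD-miR-122 (84.5% to 85.8%) and 86.8% with TuD-let-7 (85.3% to 88.3%). Reads that crossed from mt-Tv into mt-Rnr2 numbered 5 in mock, 5 with TuD-miR-122 and 0 with TuD-let-7.

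The reads from base 1 of mt-Rnr2 ended most often at base 21 in each library, as the plot of last bases shows. The next most used end was base 22 with TuD-miR-122, at 20.9%, and with TuD-let-7, at 18.4%. In mock, base 24 with 19.3% (18.3% to 20.3%) and base 22 with 17.98% (17.02% to 18.97%) had overlapping intervals. The form of bases 1 to 21 had 2349 reads in mock, 4338 with TuD-miR-122 and 840 with TuD-let-7. It made up 38.5% of the reads from base 1 in mock (37.3% to 39.8%), 45.4% with TuD-miR-122 (44.4% to 46.4%) and 48.4% with TuD-let-7 (46.0% to 50.8%). The form of bases 1 to 25 had 758, 731 and 139 reads, or 12.4%, 7.65% and 8.01%. Mock thus held a larger share of the longer form than either decoy library. In TuD-miR-122 against mock the shorter form stood at 1.73 (1.65 to 1.82) and the longer form at 0.904 (0.815 to 1.002). In TuD-let-7 against mock they stood at 0.597 (0.551 to 0.646) and 0.306 (0.254 to 0.367).

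A mismatch set the TuD-let-7 library apart at this fragment. At inner bases (not the first, last or next to last), mismatches read as C were also more frequent there in each class. They were 4.62%, 3.62% and 12.6% of exact reads and such reads together in tRNAs (mock, TuD-miR-122, TuD-let-7). In mRNAs they were 4.49%, 4.21% and 11.8%, and in rRNAs 1.43%, 1.26% and 4.52%. Those read as T were too, in rRNAs with base 11 included. Those read as G were not, and those read as A only in tRNAs. A last base A in tRNAs stood at 55.6% in mock and 52.9% with TuD-let-7. Reads from base 1 of mt-Rnr2 with a mismatch at base 11 made up 0.180% in mock (0.0900% to 0.322%), 0.386% with TuD-miR-122 (0.272% to 0.531%) and 13.9% with TuD-let-7 (12.4% to 15.5%) of exact reads and such reads together. Such reads are outside the rule for members. With a mismatch allowed at any of bases 1 to 18, the reads from base 1 numbered 6585 in mock, 10640 with TuD-miR-122 and 2192 with TuD-let-7, and the ratio of TuD-let-7 to mock moved from 0.475 (0.450 to 0.502) to 0.556 (0.529 to 0.583). The exact rule therefore gives a lower value for this gene with TuD-let-7 than a rule with 1 mismatch.

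mt-Rnr1 (chrM:70-1024, plus strand) had 862 reads in mock, 1482 with TuD-miR-122 and 261 with TuD-let-7, or 249.8, 402.5 and 126 RPM. Unlike mt-Rnr2, it had only 7.54%, 9.65% and 9.58% of its exact reads from base 1 in the same order, or 65, 143 and 25 reads. Reads of bases 1 to 18 with A in place of base 18, outside the rule for members, numbered 224, 617 and 58. The exact rule thus leaves out a form that outnumbered all exact reads from base 1. Its leading fragment, bases 402 to 424, had 190 reads in mock, 374 with TuD-miR-122 and 76 with TuD-let-7. Reads that ended at bases 424 to 426 formed 41.0% of the gene's reads in mock (37.7% to 44.3%), 37.4% with TuD-miR-122 (34.9% to 39.9%) and 44.4% with TuD-let-7 (38.3% to 50.7%), so the place of this end was shared by the 3 libraries. Per length, mt-Rnr1 gave 262, 421.5 and 132 RPM per kb, against 1285, 1927 and 611 for mt-Rnr2.

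**Figure D3:**
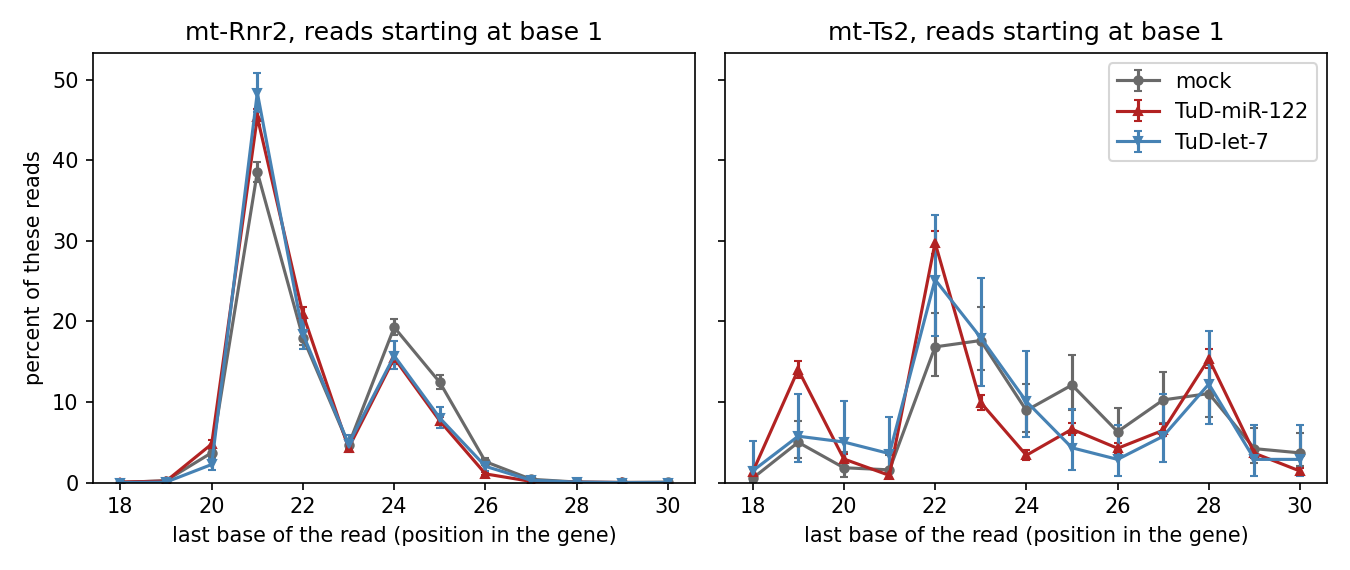
Last base of the reads that start at base 1 of mt-Rnr2 (left) and mt-Ts2 (right), as a percent of those reads in each library; points are single libraries and error bars are 95% Clopper-Pearson intervals. mt-Rnr2 peaks at base 21 in each library, and mt-Ts2 has peaks at bases 19, 22 and 28 with TuD-miR-122, where bases 19 and 22 hold 14.01% and 29.8%.

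Among the tRNAs, mt-Ts2 held the most reads. It had 736 in mock, 4677 with TuD-miR-122 and 175 with TuD-let-7, or 213, 1270 and 84.7 RPM. Per length it was the highest of the 37 genes in each library, at 3615, 21532 and 1435 RPM per kb. It was 5.96 times mock (5.51 to 6.45) with TuD-miR-122 and 0.397 times mock (0.335 to 0.469) with TuD-let-7. Without it, tRNA fragments with TuD-miR-122 were 3.60 times mock (3.39 to 3.83), so the class does not rest on this gene alone.

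The gain of mt-Ts2 with TuD-miR-122 was mostly in fragments from its first base, which directly follows mt-Th, the histidine tRNA. Reads from base 1 numbered 380 in mock, 3926 with TuD-miR-122 and 139 with TuD-let-7, or 51.6% (48.0% to 55.3%), 83.9% (82.9% to 85.0%) and 79.4% (72.7% to 85.2%) of the gene's reads. TuD-miR-122 stood at 9.68 times mock (8.71 to 10.8) for these and at 1.98 times mock (1.74 to 2.25) for all other starts, and the intervals do not overlap. In TuD-let-7 the ratios were 0.611 (0.499 to 0.744) and 0.169 (0.116 to 0.238). In each decoy library, then, fragments from base 1 had a higher ratio to mock than the rest of the gene.

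The forms that start at base 1 of mt-Ts2 differed in turn. Bases 1 to 19 had 19 reads in mock, 550 with TuD-miR-122 and 8 with TuD-let-7, and stood at 27.1 times mock (17.2 to 45.4) with TuD-miR-122. Bases 1 to 22 had 64, 1169 and 35 reads, and stood at 17.1 times mock (13.3 to 22.4). Bases 1 to 23 had 67, 390 and 25 reads, and stood at 5.46 times mock (4.20 to 7.18). A single base at the 3′ end thus separated forms whose intervals did not overlap. Bases 1 to 28 had 42, 603 and 17 reads, and stood at 13.5 times mock (9.84 to 18.9).

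A second family of mt-Ts2 fragments ran from bases 27 to 32 to bases 52 to 55 and lies in the 3′ part of the tRNA. It had 221 reads in mock, 420 with TuD-miR-122 and 25 with TuD-let-7, or 30.0%, 8.98% and 14.3% of the gene's reads. In this family a read of the gene's bases 29 to 54 was outnumbered by the same fragment with A in place of base 54. The exact form had 78, 143 and 8 reads and the form with A had 258, 861 and 63, so the exact rule leaves out the more frequent form. Over all starts, reads with the change T54A as their last base numbered 871 in mock, 2581 with TuD-miR-122 and 168 with TuD-let-7.

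**Figure D4:**
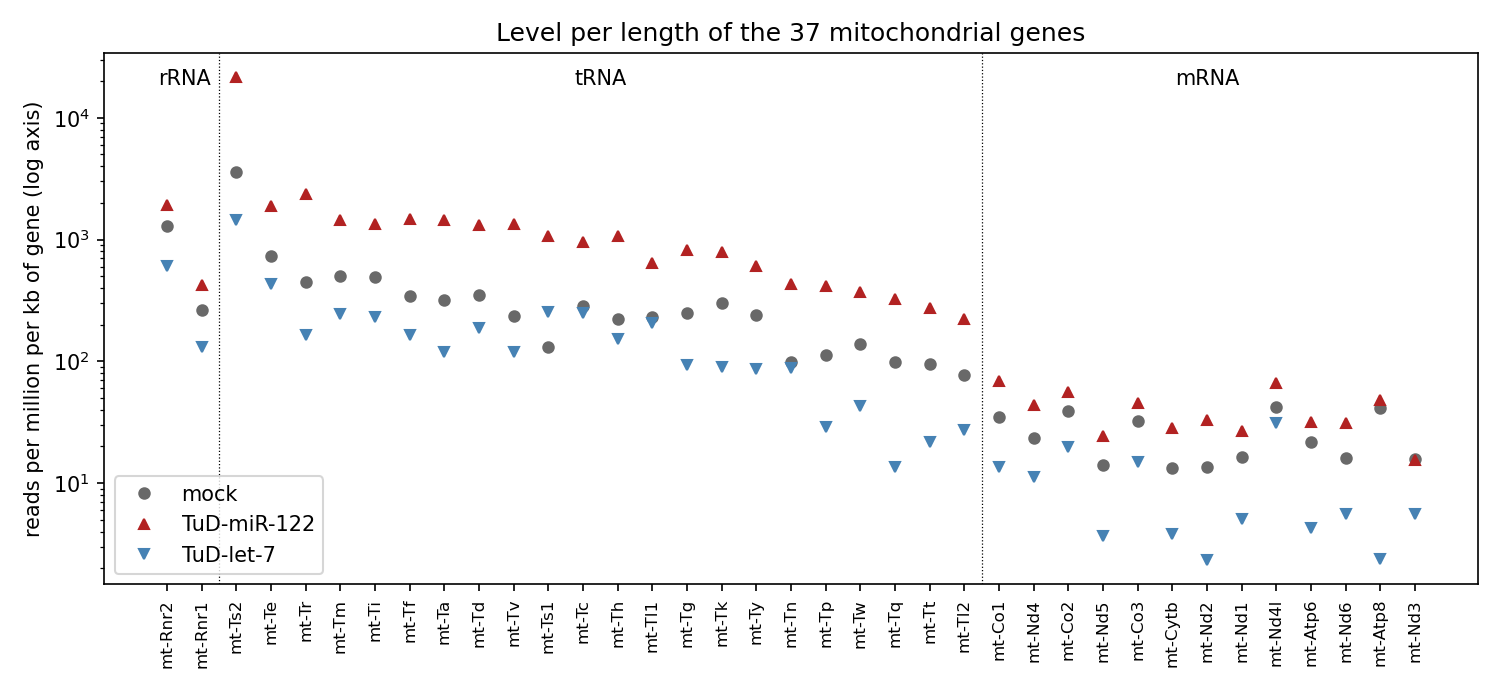
Level of each mitochondrial gene per length, as RPM per kb of gene on a log axis, by library; points are single libraries and genes are ordered by mean level within rRNA, tRNA and mRNA. mt-Ts2 is the highest gene in each library, at 3615 in mock, 21532 with TuD-miR-122 and 1435 with TuD-let-7, and every mRNA gene lies below every tRNA gene of the same library except with TuD-let-7, where the lowest tRNA gene is mt-Tq at 13.6.

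Of the other tRNAs past the rule with TuD-miR-122 against mock, the serine tRNA mt-Ts1 (minus strand) had the highest ratio. It stood at 8.99 RPM in mock, 73.1 with TuD-miR-122 and 17.4 with TuD-let-7, and 84.6% of its RPM summed over the 3 libraries came from reads that started at base 1. Its ratio was 8.13 (5.60 to 12.2) with TuD-miR-122 and 1.94 (1.17 to 3.24) with TuD-let-7, the latter on 36 and 31 reads. Both serine tRNAs thus had reads mainly from their first base. mt-Tv, the valine tRNA, stood at 16.2, 92.1 and 8.22 RPM, and was 5.67 times mock (4.27 to 7.67) with TuD-miR-122. mt-Tr, the arginine tRNA, stood at 30.4, 160.3 and 11.1 RPM, with a ratio of 5.27 (4.27 to 6.55). mt-Th, the histidine tRNA, stood at 14.8, 71.2 and 10.2 RPM, with a ratio of 4.82 (3.56 to 6.63). By exact reads these 3 had mostly internal fragments, from 80.7% to 98.8% of their summed RPM. In mt-Tv, reads with CCA, counted below, had a higher mean level than exact reads, at 106 against 38.85 RPM.

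The alanine, asparagine and phenylalanine tRNAs were next. mt-Ta stood at 22.03 RPM in mock, 99.7 with TuD-miR-122 and 8.22 with TuD-let-7. mt-Tn stood at 6.96, 30.7 and 6.29 RPM, and mt-Tf at 23.2, 101 and 11.1 RPM. In TuD-miR-122 against mock their ratios were 4.53 for mt-Ta, 4.41 for mt-Tn and 4.35 for mt-Tf. By summed RPM, 52.03% of mt-Ta began at base 39, and the next most used single start among the mainly internal tRNAs took 32.3%, in mt-Tc, the cysteine tRNA. mt-Td, the aspartate tRNA, stood at 24.4, 91.5 and 13.1 RPM, with a ratio of 3.76. mt-Tp, the proline tRNA, stood at 7.54, 27.7 and 1.94 RPM, with a ratio of 3.68.

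The remaining 7 tRNAs past the rule had ratios to mock of 2.57 to 3.33 with TuD-miR-122. mt-Tc stood at 18.8 RPM in mock, 62.7 with TuD-miR-122 and 16.5 with TuD-let-7. mt-Tq, the glutamine tRNA, stood at 6.96, 23.1 and 0.968 RPM, the last on 2 reads, so that its ratio of TuD-let-7 to mock was 0.139 (0.0159 to 0.560). mt-Tg, the glycine tRNA, stood at 16.8, 55.4 and 6.29 RPM. These 3 had nearly the same ratio to mock with TuD-miR-122, between 3.30 and 3.33. mt-Tm, the methionine tRNA, stood at 34.5, 98.9 and 16.9 RPM, and 58.96% of its summed RPM started at base 1. mt-Tl1, a leucine tRNA, stood at 17.4, 48.4 and 15.5 RPM, and mt-Ti, the isoleucine tRNA, at 34.2, 92.9 and 15.97 RPM. mt-Te, the glutamate tRNA, was second to mt-Ts2 in reads in mock, at 50.7, 130.1 and 29.5 RPM, and had the lowest ratio of the 17, 2.57 (2.15 to 3.07).

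Five-prime, internal and 3′ fragments were not spread alike over the tRNAs. By summed RPM of exact reads, 6 of the 22 had mainly reads from within 2 nt of the first base (mt-Tq, mt-Tm, mt-Tw, mt-Ts1, mt-Ts2 and mt-Tp). Of the rest, 1 had mainly reads to within 2 nt of the last base (mt-Tk) and 15 mainly internal reads. Reads with CCA, counted separately below, are not in this split. By mean level they were above all exact reads in 11 of the 22, with mt-Tq, mt-Tw and mt-Tp among these 11. The 3 tRNAs with enough reads that were not past the rule with TuD-miR-122 were mt-Tk, mt-Tw and mt-Ty, for lysine, tryptophan and tyrosine, with ratios of 2.59, 2.67 and 2.51. Their intervals began at 1.95, 1.76 and 1.84, just under 2. mt-Tl2 and mt-Tt, for leucine and threonine, had too few reads and stood at 2.86 and 2.90. No tRNA was thus at or below the level of mock with TuD-miR-122.

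Split by coding strand, the 8 tRNAs on the strand of mt-Nd6 stood at 138 RPM in mock, 488 with TuD-miR-122 and 86.6 with TuD-let-7. The other 14 stood at 466, 2192 and 205. Of the 8, 7 of 8 with enough reads were past the rule with TuD-miR-122 against mock, and of the 14, 10 of 12. Both strands were therefore involved.

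The ends of tRNA fragments also differed between libraries, and mt-Ts2 accounted for much of it. Fragments from the 5′ end were 31.5% of tRNA reads in mock (29.5% to 33.5%), 50.4% with TuD-miR-122 (49.4% to 51.4%) and 37.8% with TuD-let-7 (33.9% to 41.8%). Without mt-Ts2 the shares were 19.9% (17.8% to 22.2%), 18.1% (17.1% to 19.2%) and 20.6% (16.8% to 24.7%), and the intervals overlap. Exact fragments of the 3′ end were 13.1%, 5.38% and 7.46% of tRNA reads. In TuD-miR-122 against mock, 5′ fragments stood at 7.10 (6.55 to 7.72), internal fragments at 3.54 (3.32 to 3.78) and exact 3′ fragments at 1.82 (1.57 to 2.11). Without mt-Ts2 these were 3.27 (2.85 to 3.76), 3.99 (3.70 to 4.30) and 2.35 (1.99 to 2.79), so that internal fragments then had the highest ratio.

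The exact rule leaves out tRNA ends that carry CCA, which were counted beside the members. They numbered 2268 reads in mock, 5739 with TuD-miR-122 and 768 with TuD-let-7, or 657, 1559 and 372 RPM, and formed 94.3%, 95.7% and 97.2% of the reads that reached the last gene base, with or without added C, CC or CCA. They were 2.37 times mock (2.26 to 2.49) with TuD-miR-122 and 0.565 times mock (0.520 to 0.614) with TuD-let-7. In 11 of the 22 tRNAs the mean level of reads with CCA was above that of exact reads. mt-Tw is an example, with 53.04, 170.6 and 30.0 RPM with CCA against 9.28, 24.7 and 2.90 RPM of exact reads. mt-Ts2 is an example of the reverse, with 8.99, 12.8 and 4.84 RPM with CCA. With these reads counted, ends with CCA had the highest level of the 4 kinds in each library, as the plot of tRNA fragments by end shows.

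**Figure D5:**
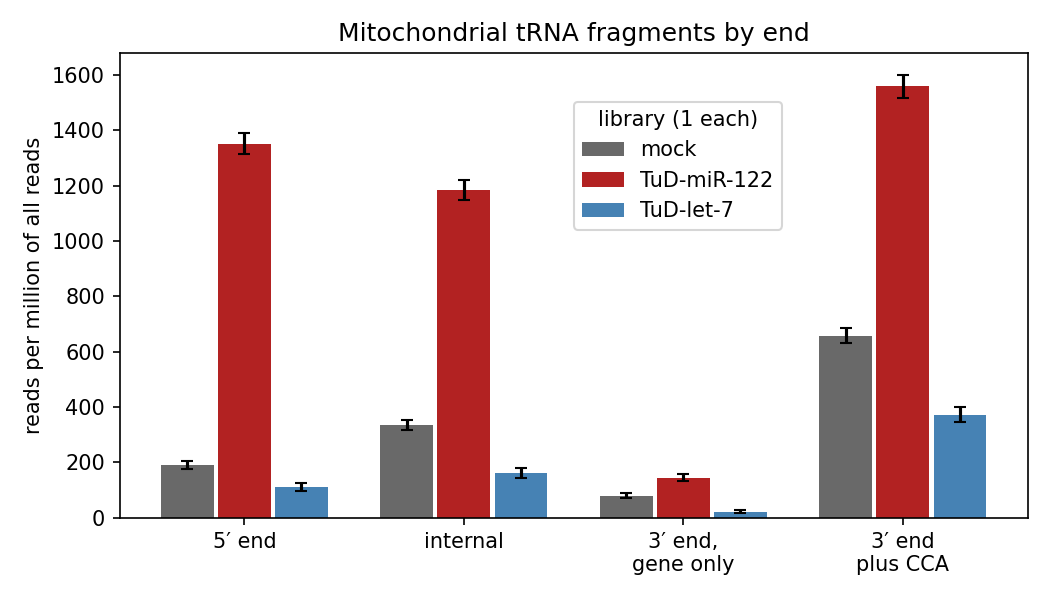
Mitochondrial tRNA fragments by the end they hold, as RPM of all reads, for the 5′ end, internal pieces, the 3′ end within the gene and the 3′ end plus CCA, which is outside the rule for members; bars are single libraries and error bars are 95% Poisson intervals. In mock the ends with CCA, at 657, stand above the 5′ ends, at 190.1, and with TuD-miR-122 they stand at 1559 against 1351.

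Lengths followed the classes. tRNA fragments had a median of 25 nt in mock and 24 nt in both decoy libraries, and those of 18 to 22 nt formed 20.5% in mock (18.8% to 22.3%), 39.2% with TuD-miR-122 (38.2% to 40.1%) and 34.2% with TuD-let-7 (30.4% to 38.1%). Without mt-Ts2 these shares were 23.8%, 34.0% and 34.4%. Shorter fragments thus formed a larger share of tRNA reads in both decoy libraries, with or without that gene, which is not a statement about their level. rRNA fragments had a median of 22 nt and were most often 21 nt long in each library, the length of the leading mt-Rnr2 form. mRNA fragments had a median of 23 nt in each library, and their 18 to 22 nt share was 43.0%, 46.9% and 47.3%, with overlapping intervals.

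Among the 13 mRNAs no gene had mainly reads from an end, and reads covered from 78.2% to 98.6% of a gene's bases. mt-Co1, a subunit of complex IV (cytochrome c oxidase), led with 53.6 RPM in mock, 107 with TuD-miR-122 and 20.8 with TuD-let-7. Its ratio to mock was 1.996 (1.67 to 2.39) with TuD-miR-122 and 0.388 (0.272 to 0.543) with TuD-let-7. mt-Nd4, a subunit of complex I, stood at 32.5, 60.3 and 15.5 RPM. Neither was past the rule against mock, and both were with TuD-miR-122 against TuD-let-7.

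By complex, the 7 mRNAs of complex I (NADH dehydrogenase) summed to 114.5 RPM in mock, 206 with TuD-miR-122 and 43.5 with TuD-let-7. The 3 of complex IV summed to 106, 181 and 46.0 RPM, mt-Cytb of complex III stood at 15.4, 32.6 and 4.35 RPM, and the 2 of complex V (ATP synthase) summed to 23.2, 32.1 and 3.39 RPM. All 4 had the same order of libraries. mt-Nd5, a subunit of complex I, was the 1 mRNA past the rule with TuD-let-7, at 25.8, 44.3 and 6.77 RPM and 0.263 times mock (0.138 to 0.464). The lowest ratio with TuD-let-7 was that of mt-Atp8, a subunit of complex V, at 0.0576 (0.00141 to 0.347) on 1 read against 29. In mt-Atp8, 13 of 29 reads in mock, 17 of 36 with TuD-miR-122 and the 1 read with TuD-let-7 started at its first base, at 47.5% of its summed RPM the most of any mRNA.

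The nuclear genes of the same complexes gave few reads. Of 82 nuclear OXPHOS subunit genes 73 had reads, and they summed to 61.2 RPM in mock, 129.8 with TuD-miR-122 and 45.5 with TuD-let-7. The sum was 2.12 times mock (1.80 to 2.51) with TuD-miR-122 and 0.744 times mock (0.577 to 0.953) with TuD-let-7. Only Ndufa2, a subunit of complex I, had enough reads for the rule with TuD-miR-122 against mock, with 59, 198 and 22 reads and a ratio of 3.15 (2.34 to 4.28), and it was past it. In TuD-let-7 against mock 0 of the 82 had enough reads. The 11 listed genes of mitochondrial RNA processing gave 7, 19 and 7 reads, too few for the rule. The 11 listed mRNAs of secreted liver proteins stood at 484, 887 and 255.5 RPM, with 0 of 10 tested past the rule with TuD-miR-122 against mock and 0 of 4 with TuD-let-7.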

How the data were processed

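The files hold, for each library, every distinct insert and its read count as deposited by the authors, not normalised. Per the labels' protocols, total RNA was extracted from liver with a mirVana kit and RNAs of 18 to 30 nt were gel-purified. How adapters were removed, the filters, any aligner and any genome build: not given in the sources used here. The inserts ran from 15 to 30 nt.

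Inserts of 18 nt or more were compared by exact match with 141767 transcripts of GENCODE mouse release 21 (GRCm38), 2202 of them miRNA precursors, which took 1 read from the members. Shares, sums and scales of miRNA reads used a looser match, of an insert's first 18 nt to a precursor. Of the members' reads 1890 (4.95%) also matched another annotated transcript and stayed in, and 2 matched 2 mitochondrial genes; the nuclear genome was not used here. Values are reads-per-million (RPM) over all reads of a library. Ratios carry exact conditional-binomial intervals, shares Clopper-Pearson intervals and levels Poisson intervals, at 95%. The zero-count floor of 3 reads is 0.870 RPM in mock, 0.815 with TuD-miR-122 and 1.45 with TuD-let-7. A read within 2 nt of a gene's first base counted as 5′, within 2 nt of its last base as 3′. CCA ends needed 15 nt of gene. The work used Python 3.11 and scipy 1.17.1. A check on simulated data covered fragments cut from the genes and the rule of size under counting error alone. It says nothing of differences between libraries of the same group.

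Named in full are the 12 genes with the highest mean level, both rRNAs and genes past the rule of size, the others mostly by range. The members and lists were chosen with earlier results of these data known. Alternatives covered the scale, the minimum length, inserts read once, distinct inserts, 1 mismatch, CCA and reads in other transcripts.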

Additional observations from a re-analysis of the deposited data

Results flagged for a closer look

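On RPM of all reads, 5 sets of reads outside the rule for members stood above their level in mock in the TuD-miR-122 library. Their values are given without an explanation. The scale of nuclear protein-coding fragments multiplies each ratio of TuD-miR-122 to mock by 0.546. On that scale the reads outside genes, after mt-Tq and across gene ends, at 1.40, 1.36 and 1.78 times mock by RPM, fall below mock. For reads across gene ends (1.39 to 2.30 by RPM) the interval on that scale still includes the level of mock. tRNA reads that ended in CCA stood at 657 RPM in mock, 1559 with TuD-miR-122 and 372 with TuD-let-7. Reads that matched a mitochondrial gene except for a last base A numbered 4377, 10053 and 1242, or 1269, 2731 and 601 RPM, 2.15 times mock (2.08 to 2.23) with TuD-miR-122 and 0.474 times mock (0.444 to 0.505) with TuD-let-7. Beside the exact reads they formed 28.7%, 29.3% and 28.8% of the total, and among tRNAs 55.6%, 41.7% and 52.9%. A last base C, G or T that the gene lacks was found in 118, 32 and 17 reads of mock.

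Reads placed on the gene-covered stretch of the mitochondrial genome but outside the genes of their strand numbered 1924 in mock, 2864 with TuD-miR-122 and 679 with TuD-let-7, or 558, 777.9 and 328.5 RPM. Many of them began at the first or second base after mt-Tq on the minus strand, opposite mt-Ti, with 974, 1417 and 342 reads or 282, 384.9 and 165.5 RPM. The leading insert there was aaataagagggcttgaacctctata (chrM:3747-3771, minus strand), with 478, 666 and 120 reads. Reads across the end of a gene numbered 98, 186 and 42, or 28.4, 50.5 and 20.3 RPM.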

How the results depend on the processing

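Of 96 ratios and shares under an alternative, 24 stayed within the counting interval of the reported value and 2 changed direction. These 2 were the ratios of TuD-miR-122 to mock for rRNA fragments, 0.826 in place of 1.51, and for mRNA fragments, 0.953 in place of 1.75, when scaled to nuclear protein-coding fragments. The interval of the mRNA ratio on that scale, 0.878 to 1.035, includes 1. Of 18 counts of genes past the rule, 10 stayed within 1.5 times the reported count, among them 18 of 28 in place of 26 for TuD-miR-122 against TuD-let-7 when scaled to non-target miRNA reads. Scales for the 3 classes were also chosen after seeing the data. With TuD-miR-122, ratios to mock scaled to reads outside miRNAs were 3.28 for tRNA, 1.12 for rRNA and 1.29 for mRNA fragments, and the tRNA ratio was 2.42 on nuclear protein-coding fragments. With TuD-let-7, tRNA, rRNA and mRNA fragments were 0.357, 0.354 and 0.278 times mock on reads outside miRNAs, 0.807, 0.8007 and 0.628 on non-target miRNA reads, and 0.733, 0.728 and 0.571 on nuclear protein-coding fragments. The ratio of mitochondrial reads with TuD-miR-122 to mock, 2.09, was 1.55 when scaled to reads outside miRNAs, 2.04 at 20 nt or more, 2.18 without inserts read once, 1.36 over distinct inserts and 2.14 with C, CC or CCA ends. The ratio of TuD-let-7 to mock, 0.471, was 0.349 when scaled to reads outside miRNAs, 0.788 when scaled to non-target miRNA reads, 0.452 without inserts read once, 0.414 over distinct inserts and 0.533 with 1 mismatch. The ratio of TuD-miR-122 to TuD-let-7, 4.44, was 2.67 when scaled to non-target miRNA reads, 4.83 without inserts read once, 3.28 over distinct inserts and 3.92 with 1 mismatch. Chosen after seeing the data, leaving out mt-Rnr2 and mt-Ts2 gave 2.52 (TuD-miR-122 to mock) and 5.26 (TuD-miR-122 to TuD-let-7), scaling to nuclear protein-coding fragments 1.14, 0.716 (TuD-let-7 to mock) and 1.60, and matching either strand of the gene-covered genome 1.99, 0.491 and 4.05. The tRNA share (order: mock, the miR-122 decoy, the let-7 decoy) was 18.4%, 43.2% and 15.2% without inserts read once, 29.1%, 35.2% and 39.1% over distinct inserts, 30.4%, 48.6% and 28.8% with 1 mismatch, 33.4%, 52.2% and 35.9% with C, CC or CCA ends, and 43.5%, 62.3% and 48.1% without mt-Rnr2 and mt-Ts2. It was 20.3% in mock and 42.4% with TuD-miR-122 without reads in other transcripts, and 39.1% with TuD-miR-122 at 20 nt or more. The 5′ share of tRNA reads in the same order was 36.9%, 54.5% and 51.5% without inserts read once, 17.4%, 13.5% and 21% over distinct inserts, 17.9%, 31.1% and 21.8% with 1 mismatch, 14.9%, 31.6% and 16.5% with C, CC or CCA ends, and 19.9%, 18.1% and 20.6% without mt-Ts2. In TuD-miR-122 it was 48.1% at 20 nt or more and 48.9% for reads from the first base alone. The TuD-miR-122 library thus did not have the highest tRNA share or 5′ share over distinct inserts, nor the highest 5′ share without mt-Ts2. Some of these differences had overlapping intervals, among them the tRNA shares of both decoy libraries over distinct inserts. The number of genes past the rule with TuD-miR-122 against mock, 17 of 32, was 9 when scaled to reads outside miRNAs and 4 when scaled to nuclear protein-coding fragments, the latter scale chosen after seeing the data. In TuD-let-7 against mock, 2 of 14, it was 6 when scaled to reads outside miRNAs, 0 when scaled to non-target miRNA reads or nuclear protein-coding fragments, 1 of 12 at 20 nt or more and 5 of 37 with at least 20 reads. In TuD-miR-122 against TuD-let-7, 26 of 28, it was 6 when scaled to nuclear protein-coding fragments. The cause of these moves was not tested, except that distinct inserts count each sequence once and so give no weight to the leading forms. Ratios over distinct inserts also divide by all distinct inserts of a library in place of all its reads. No paired analysis was possible because each group had 1 library, and for the same reason no library could be left out. Matching anywhere on the mitochondrial genome was run only for its gene-covered 15422 nt, 57 of them without sequence, and matches to the nuclear genome were not run. TuD-let-7 had the fewest reads, so its single genes have the widest intervals.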

Other observations

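Fragments that begin at the base after a tRNA gene were found at 4 places with more than a few reads, where that base had a sequence here. The base after mt-Tf, mt-Tw, mt-Ta, mt-Tn, mt-Tc, mt-Ty, mt-Td, mt-Tk and mt-Tr lies in no gene on either strand. Only gene sequences were used, so reads from these bases could not be seen. After mt-Tv they are the mt-Rnr2 fragments and after mt-Th the mt-Ts2 fragments of the report. After mt-Tq the reads from that base numbered 821 in mock, 1208 with TuD-miR-122 and 264 with TuD-let-7, with a ratio of TuD-miR-122 to mock of 1.38 (1.26 to 1.51). After mt-Tt they numbered 69, 72 and 17, with a ratio of 0.978 (0.693 to 1.38). The ratios at these 4 places thus ran from 0.978 to 9.68, the last after mt-Th.

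A last base A was also the end of a short fragment of mt-Rnr1 that the exact rule leaves out. Reads that ended with the change C18A start at base 1, since none is under 18 nt. They numbered 224 in mock, 617 with TuD-miR-122 and 58 with TuD-let-7. mt-Ty with T62A had 392, 751 and 89 reads and mt-Tl1 with C58A had 261, 446 and 171, where exact reads of the whole mt-Ty gene numbered 56, 150 and 12.

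Fragments of mt-Rnr2 that start at base 1373 had 101 reads in mock, 102 with TuD-miR-122 and 4 with TuD-let-7, with a ratio of TuD-let-7 to mock of 0.0661 (0.0177 to 0.175) where the gene as a whole stood at 0.476 (0.453 to 0.5001).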
